A study of Mus musculus with 12 samples.

Results

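Hox paralog groups 1 to 3 are the genes at the 3′ ends of the Hox clusters. The 7 genes described here are Hoxb1 and Hoxd1 of group 1, Hoxa2 and Hoxb2 of group 2, and Hoxa3, Hoxb3 and Hoxd3 of group 3. They were chosen by name, with no measured threshold, from the 39 Hox genes and 45777 gene identifiers of the deposited tables.

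Hox proteins are homeodomain transcription factors that give cells their position along the head-to-tail axis. In each cluster the genes lie in the order of their expression domains, so that the 3′ genes start in the hindbrain and the 5′ genes reach the tail. Paralog groups 1 to 3 are best known for patterning the hindbrain rhombomeres and their motor nuclei, and most of them stay on in the spinal cord behind their anterior boundary. They bind DNA together with the TALE cofactors of the Pbx, Meis and Pknox families, and retinoic acid turns on the 3′ genes early.

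RNA was taken from the ventral spinal cord of E12.5 mouse embryos, cut at the brachial (forelimb) or lumbar (hindlimb) level around the cells marked by an Hb9::GFP reporter. Hb9 (Mnx1) is a motor neuron gene, but the cut tissue also held other cells. Embryos were Isl2 +/- (heterozygote, Het) or Isl2 -/- (Isl2 KO). Isl2 is a LIM homeodomain factor of postmitotic motor neurons, and the null allele is constitutive, with coding exons replaced by a neomycin cassette. All 12 libraries thus carried at least 1 null allele, there was no wild-type group, and each of the 4 groups of level and genotype had 3 libraries.

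The values are TPM, a level per transcript length that sums to the same total in each library, rescaled here by 1 factor per library so that most genes were centred. The libraries held 4.49 to 6.64 Gb of aligned sequence and 22983 to 24191 genes above 0. Brachial KO replicate 3 was the shallowest and stood farthest from its group, with a mean correlation of 0.969 with the other KO brachial libraries. Isl2 itself was lower in KO at both levels with no overlap, at 8.92 ± 0.72 against 5.93 ± 1.41 TPM (SD, n = 3) in brachial cord and 9.39 ± 0.94 against 7.37 ± 0.85 TPM in lumbar cord. Genotype ranges did not overlap for 20.1% of all genes in brachial and 9.94% in lumbar cord. The Isl2 log2 difference was -0.61 in brachial (adjusted p = 0.357, limma) and -0.35 in lumbar cord (adjusted p = 0.999, limma), so neither passed after adjustment. All 9 motor neuron markers listed were present in all 12 libraries, and their summed level spanned 183 to 284 TPM. Y-linked genes showed that same-numbered brachial and lumbar libraries differed in sex in 3 of 6 pairs, so in those pairs a shared number does not mark 1 embryo. The series' design names 3 animals of each genotype for both levels, so brachial and lumbar libraries may share embryos, and the labels do not say which. The comparison of levels treats the 12 libraries as independent, and its p-values measure only the spread between them.

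The members sit in 3 clusters (coordinates from the mouse build mm10/GRCm38 with RefSeq gene models). Hoxa2 (chr6:52162417-52164831) and Hoxa3 (chr6:52169059-52213067) lie on the minus strand of the HoxA cluster. Hoxb1 (chr11:96365746-96368254), Hoxb2 (chr11:96351632-96354020) and Hoxb3 (chr11:96307101-96347930) lie on the plus strand of the HoxB cluster. Hoxd1 (chr2:74762980-74765142) and Hoxd3 (chr2:74711993-74748271) lie on the plus strand of the HoxD cluster. The HoxC cluster has no gene of groups 1 to 3 in mouse.

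The group 3 genes are long and nested with their neighbours, which touches how their reads could be assigned. The Hoxa3 model spanned 44.0 kb and overlapped 8 other genes, among them Hoxa4, Hoxa5 and Hoxa6 on its own strand. Hoxb3 overlapped Hoxb4, Mir10a and the antisense RNA Hoxb3os. Hoxd3 overlapped Hoxd4 and Mir10b on its own strand and the antisense RNAs Gm38462 and Hoxd3os1. In the GENCODE M21 models, a different annotation from the one behind the values, 62.3% of the Hoxd3 exon bases were shared with a gene of the same strand, of which 388 bases lay in Hoxd4 exons. No exon base of Hoxb1 or Hoxd1 was shared. The strand setting of the authors' quantification is not given in the sources used here, so reads of a member and its antisense partner may not have been told apart.

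Promoter sequence is shown for Hoxd1 and Hoxd3, called between levels, for Hoxa3, called between genotypes in lumbar cord, and for the other group 1 gene, Hoxb1, from RefSeq start sites on GRCm38.p6. Each run is the 250 bases before the start site given in the RefSeq promoter table, 5′ to 3′ on the gene's strand, and capitals mark a match on either strand to 1 of 3 motifs. The motifs searched were a Pbx-Hox site (TGATNNAT), a Meis site (TGACAG) and a retinoic acid receptor half-site (AGGTCA).
Hoxb1, plus strand, chr11:96365508-96365757: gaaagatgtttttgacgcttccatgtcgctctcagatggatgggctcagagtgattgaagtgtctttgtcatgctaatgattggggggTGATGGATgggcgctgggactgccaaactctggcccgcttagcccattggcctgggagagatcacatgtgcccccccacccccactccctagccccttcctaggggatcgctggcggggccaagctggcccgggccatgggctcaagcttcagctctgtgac
Hoxd1, plus strand, chr2:74762730-74762979: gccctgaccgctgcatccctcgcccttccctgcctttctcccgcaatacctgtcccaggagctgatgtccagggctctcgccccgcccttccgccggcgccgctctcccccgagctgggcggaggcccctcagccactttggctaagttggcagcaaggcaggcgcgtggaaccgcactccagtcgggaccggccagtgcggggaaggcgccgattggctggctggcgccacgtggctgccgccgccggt
Hoxd3, plus strand, chr2:74711743-74711992: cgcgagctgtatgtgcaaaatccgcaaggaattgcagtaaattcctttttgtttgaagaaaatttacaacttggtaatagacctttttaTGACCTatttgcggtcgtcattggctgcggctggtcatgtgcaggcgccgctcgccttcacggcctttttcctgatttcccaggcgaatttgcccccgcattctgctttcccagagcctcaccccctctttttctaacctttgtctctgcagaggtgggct
Hoxa3, minus strand, chr6:52213068-52213317: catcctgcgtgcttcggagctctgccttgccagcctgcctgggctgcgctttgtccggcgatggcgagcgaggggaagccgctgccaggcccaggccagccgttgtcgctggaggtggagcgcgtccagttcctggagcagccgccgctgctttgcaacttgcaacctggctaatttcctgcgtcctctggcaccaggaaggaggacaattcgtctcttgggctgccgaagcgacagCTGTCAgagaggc
Hoxb1 held 1 Pbx-Hox match, 162 bases before this start, which lies inside the gene span, so the last bases of its run are within that span. Its promoter is known in the hindbrain for sites through which Hoxb1 and Pbx proteins keep the gene on. Hoxd3 held 1 half-site, 161 bases before the start on the minus strand, and Hoxd1 held none of the 3 motifs. Of 32536 promoter windows of the same length, 7.66% held a Pbx-Hox match, 15.8% a Meis match and 14% a half-site. Hoxa2 held a Pbx-Hox match and a Meis match, and Hoxa3 a Meis match. These 5 members had a promoter entry.

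The microRNA genes nested in Hoxb3 and Hoxd3 are shown for the seed they share (RefSeq, GRCm38.p6), with bases 2 to 8 in capitals.
miR-10a-5p, chr11:96317186-96317208: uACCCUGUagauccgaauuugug
miR-10b-5p, chr2:74726074-74726096: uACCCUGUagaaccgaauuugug
The seed was identical, and the 23-base sequences differed at 1 position (U12A, counted from the 5′ end, miR-10a first). The Mir10a row had 2.09 ± 0.81 TPM in brachial and 3.40 ± 1.14 TPM in lumbar cord (SD, n = 6 each), and the Mir10b row 4.28 ± 2.02 and 5.50 ± 1.76 TPM. Neither difference passed the limma test (adjusted p = 0.0525 for Mir10a and 0.373 for Mir10b). These rows count total RNA over short hairpins and are not a measure of the mature microRNAs.

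The members spanned a wide range of levels. Over the 12 libraries the mean level was 63.6 TPM for Hoxb2, 46.4 for Hoxb3, 38.6 for Hoxd3, 18.1 for Hoxa2, 10.4 for Hoxa3, 1.21 for Hoxd1 and 0.280 for Hoxb1. The group 2 and 3 members were all above the group 1 members, of which Hoxb1 was close to 0. Hoxb2 was above Hoxb3 in 11 of 12 libraries, Hoxb3 above Hoxd3 in 10 of 12 and Hoxa2 above Hoxa3 in 11 of 12. At every other step of the order all 12 libraries kept it. The ranges of Hoxb2 and Hoxb3 overlapped (40.9 to 92.7 against 41.6 to 52.9 TPM), as did those of Hoxa2 and Hoxa3 (14 to 26.0 against 5.91 to 18.3 TPM). Hoxb3 and Hoxd3 were apart in brachial cord and overlapped in lumbar cord.

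The members also differed in how much they varied. Within a level Hoxb3 had the lowest coefficient of variation, 8.51% over the 6 brachial libraries and 6.96% over the 6 lumbar ones. Hoxd3 came next, at 9.35% and 13.8%, and Hoxa2 (10.1% and 17.8%) and Hoxb2 (19.3% and 16.1%) followed. Hoxd1 had 24.7% and 21.8%, and Hoxa3 41.2% and 28.0%. Hoxb1 had the widest relative spread, 54.0% and 45.3%, at the lowest level. The deposited coverage, a mean read depth, ran from 0 to 2.1-fold for Hoxb1 and from 1.53 to 6.47-fold for Hoxd1, but from 5.43 to 20.1-fold for Hoxa3 and from 83.2 to 214-fold for Hoxb2. Coverage worked out from FPKM was higher for Hoxa3, at 16.8 to 44.6-fold, and most of all for Hoxb3, at 97.9 to 166-fold against a deposited 16.7 to 28.3-fold. By deposited coverage Hoxb3 lay below Hoxd3 (73.1 to 174-fold) and Hoxa2 (38.4 to 81.8-fold), so its place in the order of levels depends on the column used.

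**Figure D1:**
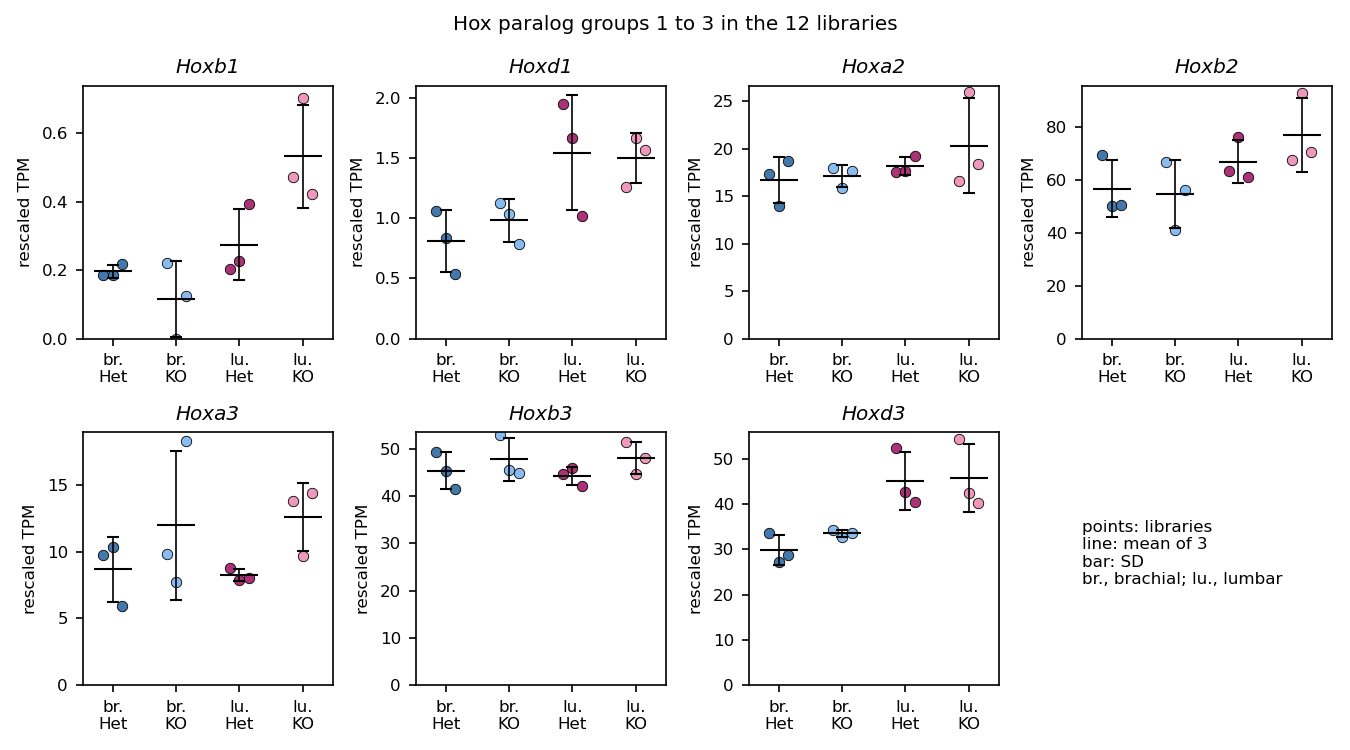
Level of each member in the 12 libraries, in rescaled TPM on an axis from 0, by level and genotype (points, libraries; line, mean of 3; bar, SD). All 6 lumbar Hoxd3 points lie above the 6 brachial points, while Hoxb3 stays between 41.6 and 52.9 TPM.

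Lumbar and brachial cord were compared first, with genotype as a term, to see whether genes whose domains begin in the hindbrain differ between the limb levels. The HoxD members were higher in lumbar cord: Hoxd3 by 1.43-fold and Hoxd1 by 1.63-fold. Hoxb2 had a higher mean in lumbar cord but missed the threshold, and Hoxa2, Hoxa3 and Hoxb3 did not pass the test. Of the 6 members tested, 2 were called higher and 0 lower at an adjusted p under 0.05 (limma, Benjamini-Hochberg over 16706 genes). Among all genes tested 8.91% were called higher and 9.62% lower, which is the background for 2 of 6. Of these calls 48.1% were higher, and 22.7% with TPM as deposited. The median log2 difference was 0.28 for the members and 0.01 for all genes.

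Hoxd3, known for shaping the uppermost vertebrae, had 33.7, 27.2 and 28.8 TPM in brachial Het and 34.3, 32.8 and 33.5 TPM in brachial KO. It had 52.4, 42.6 and 40.5 TPM in lumbar Het and 54.4, 42.5 and 40.4 TPM in lumbar KO. Every lumbar library was above every brachial one, with replicate 1 the highest in both lumbar groups. The log2 difference was 0.51 ± 0.089 (SE; 95% CI 0.32 to 0.71; adjusted p = 0.00246). Leaving out any 1 library gave 0.45 to 0.56 with adjusted p from 0.00264 to 0.00826. With FPKM as deposited it was 0.50 (adjusted p = 0.00343). With TPM as deposited, where the median of all genes lay at -0.13, it was 0.37 and missed the threshold (adjusted p = 0.057). It also missed it in the 6 KO libraries alone (0.44, adjusted p = 0.0872, limma). Among all genes tested, 8.31% had level ranges that did not overlap. Of the 4 genes that overlap Hoxd3, 2 rose as well. Hoxd4, nested within its span, rose from 55.2 ± 2.8 to 90.2 ± 7.0 TPM (SD, n = 6 each; adjusted p = 3.74e-06). The antisense RNA Gm38462, which overlaps the 5′ end of Hoxd3, rose from 15 to 44.2 TPM (log2 difference 1.57, adjusted p = 1.72e-06). Mir10b did not pass (adjusted p = 0.373), and Hoxd3os1 had 0.599 TPM in brachial and 0.441 TPM in lumbar cord (log2 difference -0.44, adjusted p = 0.205). How far these overlapping genes enter the Hoxd3 value was not tested.

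Hoxd1, a group 1 gene known from nociceptive sensory neurons, had 1.06, 0.833 and 0.538 TPM in brachial Het and 1.13, 1.04 and 0.783 TPM in brachial KO. It had 1.95, 1.67 and 1.02 TPM in lumbar Het and 1.26, 1.67 and 1.57 TPM in lumbar KO. The lowest lumbar library (Het replicate 3) lay within the brachial range, and the other 5 lay above it. The log2 difference was 0.71 ± 0.20 (SE; 95% CI 0.27 to 1.15; adjusted p = 0.0284). The call was lost when 1 of 7 libraries was left out (brachial Het replicate 2 or 3, brachial KO replicate 3, lumbar Het replicate 1 or 2, or lumbar KO replicate 2 or 3), with adjusted p from 0.0505 to 0.0623. It was also lost without the filter on low values (adjusted p = 0.056) and with TPM as deposited (adjusted p = 0.0947). Markers of sensory ganglia, where Hoxd1 is known, did not pass the test in either direction (0 of 4 tested, of 8 listed), and their sum ran from 6.72 to 12.1 TPM in brachial and 7.86 to 10.8 TPM in lumbar cord, with Runx3 and Scn10a under 0.1 TPM throughout.

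Hoxb1, the group 1 gene that marks rhombomere 4 in the hindbrain, stayed under the filter on low values and was fitted only when that filter was dropped. It had 0.187, 0.185 and 0.219 TPM in brachial Het, and 0.222, 0 and 0.124 TPM in brachial KO. It had 0.202, 0.227 and 0.394 TPM in lumbar Het, and 0.471, 0.703 and 0.424 TPM in lumbar KO. The 3 lumbar KO libraries were the highest of the 12, and brachial KO replicate 2 was listed at 0. The means were 0.156 ± 0.084 TPM in brachial and 0.403 ± 0.183 TPM in lumbar cord (SD, n = 6 each; unadjusted p = 0.00866, exact two-sided permutation test over libraries). The ranges overlapped, and the deposited coverage of the gene was at most 2.1-fold in any library. Without the filter the log2 difference was 0.99 ± 0.34 (SE; adjusted p = 0.103, limma).

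Group 2 genes did not pass the threshold between levels. Hoxb2, which is needed for facial motor neurons in rhombomere 4, had 69.1, 50.2 and 50.4 TPM in brachial Het and 66.5, 40.9 and 55.9 TPM in brachial KO. It had 63.3, 76.0 and 61.0 TPM in lumbar Het and 67.4, 92.7 and 70.3 TPM in lumbar KO. The ranges overlapped, with 1 library of each brachial genotype within the lumbar range. The log2 difference was 0.38 ± 0.13 (SE; 95% CI 0.09 to 0.67; adjusted p = 0.0647). It passed the threshold when only protein-coding genes were tested (adjusted p = 0.0461), without brachial Het replicate 1 (adjusted p = 0.0261) and without brachial KO replicate 1 (adjusted p = 0.0491). Hoxa2, the selector of the second pharyngeal arch, ran from 14 to 18.7 TPM in brachial and 16.6 to 26.0 TPM in lumbar cord. Its log2 difference was 0.18 ± 0.10 (SE; 95% CI -0.05 to 0.40; adjusted p = 0.269).

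The other group 3 genes did not pass the test between levels. Hoxb3 had 46.6 ± 4.0 TPM in brachial and 46.2 ± 3.2 TPM in lumbar cord (SD, n = 6 each). The interval of its log2 difference, -0.14 to 0.12, left room only for small changes. Hoxa3 had 10.3 ± 4.3 and 10.4 ± 2.9 TPM, and its wider interval, -0.37 to 0.49, could hold a change as large as that of Hoxb2.

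**Figure D2:**
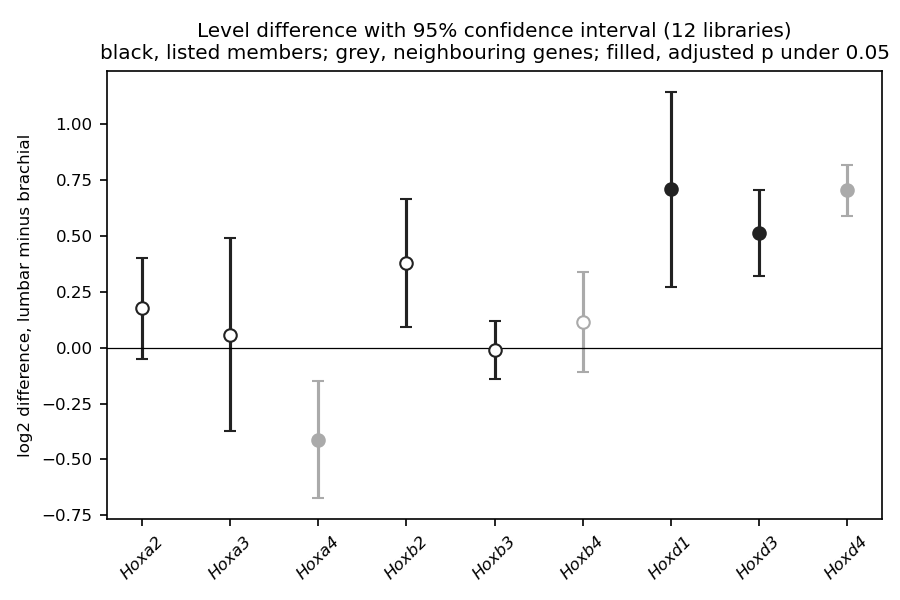
Log2 difference of lumbar minus brachial cord with its 95% confidence interval from limma, for the 6 tested members (black) and the neighbouring genes Hoxa4, Hoxb4 and Hoxd4 (grey). Filled points passed the adjusted p threshold: Hoxd1, Hoxd3 and Hoxd4 are above 0 and Hoxa4 below.

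The clusters went different ways near their 3′ ends. Hoxa4 fell by 0.41 on the log2 scale (adjusted p = 0.0335), whereas Hoxb4 had a log2 difference of 0.11 (adjusted p = 0.49). Among the 4 HoxD genes 3′ of Hoxd9 the differences ran from 0.51 to 0.71, and all 4 were called higher. Those of Hoxb2 to Hoxb9 ran from -0.40 to 0.38, and none passed the test. For scale, the lumbar genes Hoxd10 and Hoxc10 differed by 10.6 and 8.41 on the log2 scale and the brachial gene Hoxc8 by -3.32, far beyond any member.

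**Figure D3:**
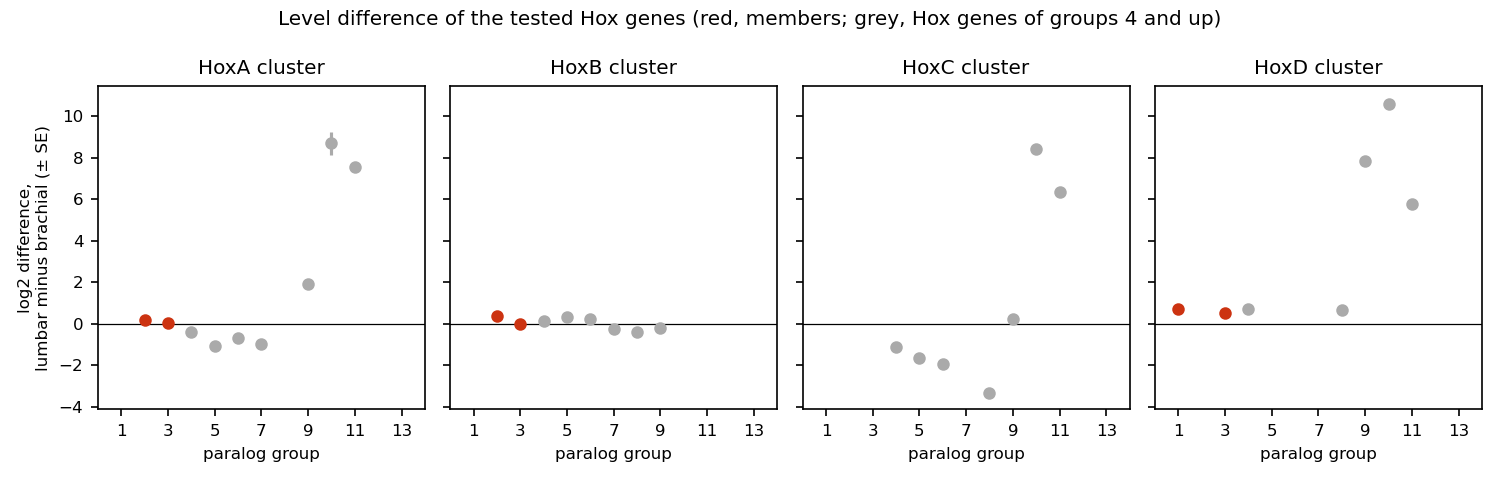
Log2 difference of lumbar minus brachial cord (± SE) against paralog group for 31 of the Hox genes tested, 1 panel per cluster (red, members; grey, genes of groups 4 and up). The members lie between -0.01 and 0.71, near the zero line, while groups 9 to 11 of clusters A and D and groups 10 and 11 of cluster C rise to 1.91 and above.

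Ratios within a library do not depend on the rescaling, and of the 4 ratios plotted, Hoxd3 to Hoxb3 alone separated the levels. The Hoxd3 to Hoxb3 ratio ran from 0.599 to 0.747 in the 6 brachial libraries (median 0.688) and from 0.838 to 1.17 in the 6 lumbar ones (median 0.956). Between these group 3 paralogs, Hoxd3 thus stood higher against Hoxb3 in every lumbar library than in any brachial one. The Hoxb2 to Hoxa2 ratio overlapped between levels, at 2.58 to 4.0 against 3.17 to 4.32. Hoxd3 to Hoxa3 also overlapped, at 1.83 to 4.87 against 2.81 to 5.99. By deposited coverage the Hoxd3 to Hoxb3 ratio was 3.51 to 4.38 in brachial and 5.04 to 6.68 in lumbar cord, so its size depends on the column while the levels still did not overlap. These ratios are given as descriptions, with no test.

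Summed over the members, group 1 made up 0.518 to 0.740% of their TPM in brachial and 0.819 to 1.14% in lumbar cord. Group 2 made up 39.4 to 47.9% and 40.9 to 54.5%, and group 3 51.4 to 59.9% and 44.4 to 58.3%. The HoxB members held the largest share of TPM at both levels, 59.0 to 65.8% in brachial and 57.3 to 63.7% in lumbar cord. That share includes Hoxb3, whose deposited coverage was 16.7 to 28.3-fold against 97.9 to 166-fold worked out from FPKM, so it depends on the column used. The HoxD share overlapped between levels, at 18.9 to 23.5% and 20.3 to 28.8%. The 7 members together made up 14.01 to 15.4% of all Hox TPM in brachial and 13.6 to 16.0% in lumbar cord, so their total share overlapped although the Hox genes around them differed widely between levels.

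**Figure D4:**
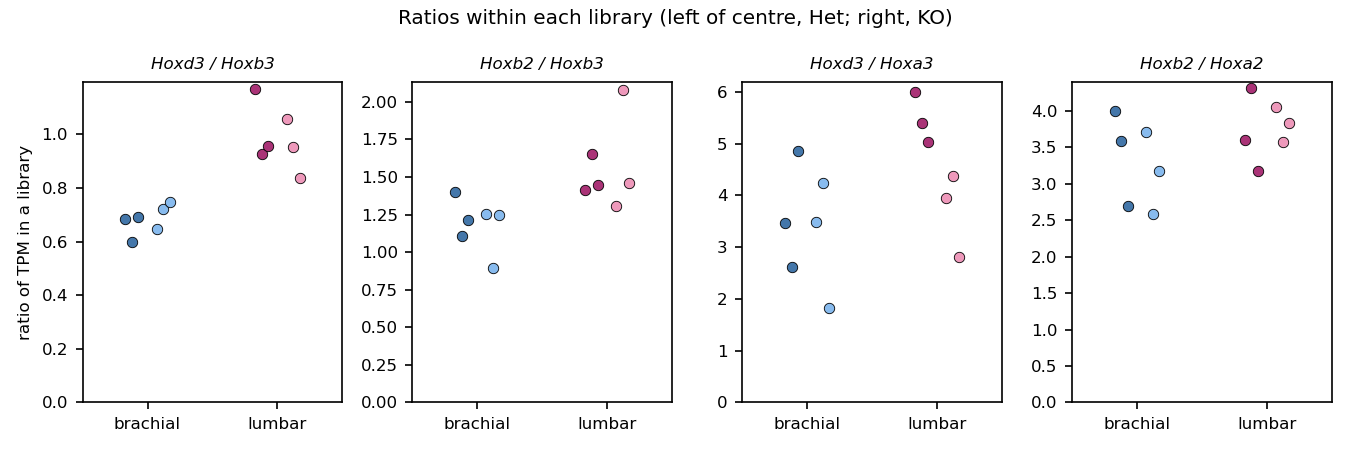
Ratios of TPM between Hox genes within each library, on axes from 0, by level (dark points left of centre, Het; light points right, KO). Hoxd3 to Hoxb3 separates the levels without overlap, and the other 3 ratios overlap.

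Markers of other cell types also differed between levels, and bulk RNA cannot tell fewer cells of a type from less RNA per cell. Over all genes tested, 8.91% were higher and 9.62% lower in lumbar cord. Of 7 ventral interneuron markers, 4 were higher in lumbar cord and 0 lower, and Sim1 (V3 neurons) rose from 5.60 to 8.43 TPM (adjusted p = 0.0176). The summed level of the 7 ran from 41.6 to 59.7 TPM in brachial and from 45.1 to 80.9 TPM in lumbar cord. Of 9 progenitor markers, 3 were higher and 1 lower, among them Hes5, at 75.6 TPM in brachial and 108.5 TPM in lumbar cord. Of 10 dorsal interneuron markers tested, 1 was higher and 2 lower. Of 9 motor neuron markers, the choline transporter Slc5a7 alone differed, falling from 28.8 to 13.5 TPM (adjusted p = 1.98e-05). Of 4 microglia markers 3 were lower in lumbar cord, with Csf1r at 3.41 TPM in brachial and 1.64 TPM in lumbar cord (adjusted p = 0.00257). The crest and glial gene Erbb3 fell from 1.57 to 0.406 TPM (adjusted p = 0.0038), 1 of 3 tested in its list, and the endothelial gene Kdr from 14.04 to 10.92 TPM (adjusted p = 0.0013), 1 of 3. The part of these cell types in the HoxD difference was not tested.

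Regulators and cofactors of the 3′ Hox genes were then read from a list of 19, of which 14 passed the filter. Between levels 3 were higher in lumbar cord and 0 lower, at the adjusted p threshold used above. Among all genes tested 8.91% were higher and 9.62% lower, which is the background for 3 of 14. Rarb, the retinoic acid receptor gene that retinoic acid itself induces, rose from 56.9 to 81.8 TPM (log2 difference 0.52, adjusted p = 0.00267). The TALE cofactor Meis3 rose from 85.6 to 112 TPM (0.38, adjusted p = 0.0113), and Pbx2 rose from 45.1 to 55.8 TPM (0.31, adjusted p = 0.0179). All 3 had no overlap between levels, as did 8.31% of all genes tested. Pbx3, Meis1 and Meis2, each at 106 TPM or more, did not pass. The median over the 14 genes was 0.07, against 0.01 for all genes.

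Some activators of Hox genes were at or near 0, and others on the list were not. Egr2 (Krox20), which drives Hoxa2 and Hoxb2 in rhombomeres 3 and 5, had a mean of 0.039 TPM in brachial and 0.045 TPM in lumbar cord. Cdx1 and Cdx4 were listed at 0 in all 12 libraries. Of 5 genes known as hindbrain targets, 4 were tested between levels and 0 passed.

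Isl2 KO and Het were compared within each level, at a log2 difference beyond 0.5 and an unadjusted p under 0.05. The study states this threshold for genes lower in KO, and it was applied here in both directions. Only Hoxa3 in lumbar cord passed, rising 1.51-fold in Isl2 KO, and it did not pass after adjustment over all genes. In brachial cord 0 of 6 members passed, and in lumbar cord 1 of 6 passed. Among all genes 3.08% passed this threshold in brachial and 1.77% in lumbar cord, and 71.8% and 55.3% of those were higher in KO. With TPM as deposited 96.2% of the brachial calls were higher, and with quantile normalization 57.3%. With the adjusted p in its place, limma called 0.00596% of genes in brachial cord (1 gene) and 0% in lumbar cord, where 808 genes had an unadjusted p under 0.05. The median log2 difference of the members was 0.12 in brachial and 0.13 in lumbar cord, against -0.01 for all genes at both levels.

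Hoxa3 had 9.74, 10.4 and 5.91 TPM in brachial Het and 9.84, 7.74 and 18.3 TPM in brachial KO. It had 8.74, 7.87 and 8.05 TPM in lumbar Het and 13.8, 9.71 and 14.4 TPM in lumbar KO. In lumbar cord the 3 KO libraries were above the 3 Het libraries, and in brachial cord KO replicate 3 stood far above the other 5 libraries, which overlapped. The lumbar log2 difference was 0.59 ± 0.16 (SE; 95% CI 0.23 to 0.96; unadjusted p = 0.00559, adjusted p = 0.999, limma). Without lumbar KO replicate 3 limma gave 0.49, under the size threshold. With all 12 libraries sharing 1 estimate of the spread it missed the p threshold (limma, unadjusted p = 0.0646). With 3 against 3 libraries the exact permutation test cannot go below 0.1, which is the value it gave. Ranges of the genotypes did not overlap for 9.94% of all genes in lumbar cord and 20.1% in brachial cord.

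In brachial cord the Hoxa3 log2 difference was 0.40 ± 0.33 (SE; 95% CI -0.37 to 1.18; adjusted p = 0.549). It was 0.05 without brachial KO replicate 3, the shallowest library. The difference between the lumbar and brachial genotype effects was 0.19 ± 0.41 (SE; adjusted p = 0.915), so the effect was not shown to differ between levels. Of the genes that overlap Hoxa3 on its strand, Hoxa4 had a lumbar log2 difference of 0.44 with no overlap, Hoxa5 one of 0.04 and Hoxa6 one of 0.06 (each with an adjusted p of 0.999). None of them passed the threshold. The summed progenitor markers also stood apart in lumbar cord, at 217 to 248 TPM in Het and 266 to 292 TPM in KO. Of these 9 genes 0 passed the threshold, with 7 above 0 and 2 below on the log2 scale. Most of the sum came from Sox2 (mean 90.2 TPM in Het and 104.9 TPM in KO) and Hes5 (99.2 and 117.7 TPM). Of 9 motor neuron markers none passed the threshold, but 8 had a log2 difference below 0 in lumbar KO (median log2 difference -0.26, against -0.01 for all genes), with no overlap for Chat, Slc5a7 and Isl2. Among the other marker lists, Ptf1a of dorsal interneurons (1.75-fold, no overlap) and the embryonic globin Hba-x (1.61-fold, overlapping) passed the same threshold in lumbar KO, each with an adjusted p of 0.999 (limma). The other 3 of the 4 blood genes did not pass, the median log2 difference of the 4 was 0.53, and their summed level was 1936 to 3177 TPM in Het and 2561 to 4250 TPM in KO. The part of any of these lists in the Hoxa3 difference was not tested.

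The other tested members did not pass between genotypes. The brachial log2 differences (KO minus Het) were 0.28 for Hoxd1, 0.05 for Hoxa2, -0.07 for Hoxb2, 0.07 for Hoxb3 and 0.17 for Hoxd3, with adjusted p from 0.396 to 0.877. The lumbar ones were -0.01 for Hoxd1, 0.14 for Hoxa2, 0.19 for Hoxb2, 0.12 for Hoxb3 and 0.02 for Hoxd3, each with an adjusted p of 0.999. The tightest intervals were those of Hoxd3 in brachial cord, -0.04 to 0.39, and of Hoxb3 in lumbar cord, -0.07 to 0.30. The widest was that of Hoxd1, -0.45 to 1.01 in brachial cord, which still held a change of the size seen between levels (0.71). Hoxb1 was under the filter: its lumbar KO values, 0.424 to 0.703 TPM, were all above the Het values, 0.202 to 0.394 TPM, and without the filter the adjusted p was 0.924 (limma).

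**Figure D5:**
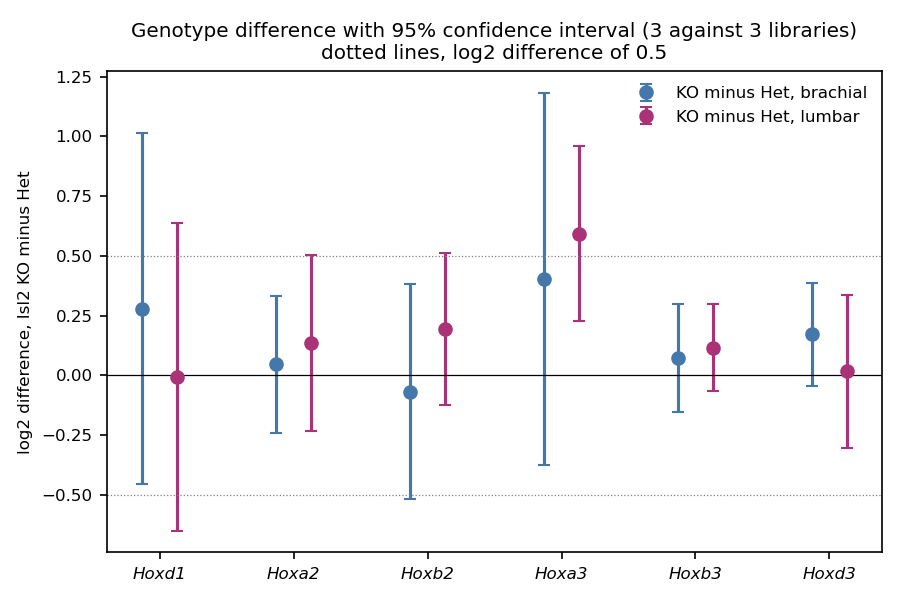
Log2 difference of Isl2 KO minus Het with its 95% confidence interval from limma, for the 6 tested members in brachial (blue) and lumbar (purple) cord, 3 libraries against 3 (dotted lines, log2 difference of 0.5). Hoxa3 in lumbar cord, at 0.59, is the only point whose interval excludes 0.

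No member was called for a genotype effect that differed between levels (0 of 6 tested, adjusted p from 0.823 to 0.936, limma). The same test called 0% of all genes, with 738 of 16706 genes at an unadjusted p under 0.05. None of the 14 regulators and cofactors tested passed the genotype threshold at either level. Of the hindbrain targets, Gata3 passed it in brachial cord, at 1.38 TPM in Het and 2.35 TPM in KO (log2 difference 0.71, unadjusted p = 0.0162, adjusted p = 0.357, limma).

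The genes whose pattern over the 12 libraries was most like each member's were read from Pearson correlations of log2 values over 13272 protein-coding genes. They are a description, since the libraries share levels, genotypes and depth. For Hoxd3 they were Six4 (r = 0.932), Kif26a (0.924) and Scube3 (0.917), with Hoxd4 in rank 4 (0.911). For Hoxd1 they were Ccdc163 (0.923), Stra6l (0.896) and Golim4 (0.892), and Hoxd3 was its closest fellow member (0.783). For Hoxb2 they were Baz1a (0.935), H2ax (0.928) and Bcl2l12 (0.926), and for Hoxa2 Lars (0.929), Sec23b (0.911) and Ythdf2 (0.906). For Hoxa3 they included Rcor1 (0.908) and Lhx1 (0.890), and for Hoxb3 Eps8l1 (0.902), Lnx2 (0.873) and Pcp4l1 (0.834). Members of 1 cluster were not always alike: r was 0.783 for Hoxd1 with Hoxd3, 0.295 for Hoxb2 with Hoxb3 and -0.092 for Hoxa2 with Hoxa3. Across clusters, Hoxa2 and Hoxb2 of group 2 gave 0.682, and Hoxb3 and Hoxd3 of group 3 gave 0.235.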

How the data were processed

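Total RNA depleted of ribosomal RNA was sequenced (TruSeq Stranded Total RNA). Per the submitters' processing notes the reads were trimmed with Trimmomatic 0.38, aligned to mm10 with HISAT2 2.1.0 and Bowtie2 2.3.4.1, and quantified with StringTie 2.1.3b. The deposited tables give coverage (a signal of mean read depth), FPKM and TPM per NCBI gene ID, without counts, so intervals from counts were not possible. Symbols came from RefSeq on GRCm38.p6 (45679 of 45777 IDs). TPM was divided by a median-of-ratios factor per library (0.893 to 1.25), and log2(TPM + 0.1) was tested with limma 3.58.1 (R 4.3.3, eBayes with trend) for genes with a mean of at least 0.5 TPM. The pseudocount makes fold changes of low genes too small. Level was fitted on 12 libraries with genotype as a term, and genotype on the 6 libraries of a level. Fits were tested on simulated data. Members, gene lists and the naming rule (members, nearest 5′ neighbours, overlapping genes, up to 4 called genes per list with the smallest p, 3 genes most alike) were chosen with earlier results of these data known. Each sequence was matched by symbol, for 5 of 7 members. The alternatives were other pseudocounts, filters, scalings, units and fits, an embryo-sex term, a replicate block and leaving out each library. Some genes that the rule names are not reported here.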

Additional observations from a re-analysis of the deposited data

Results flagged for a closer look

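Over the members, 14 sets of 6 libraries of 1 level were searched for a library far from the others by Dixon's criterion, which chance meets in about 1 of 20 sets, and 2 were found. Hoxa2 in lumbar KO replicate 2 was 26.0 TPM, against 16.6 to 19.2 TPM in the other 5 lumbar libraries. Without that library the lumbar genotype difference of Hoxa2 was -0.05 in place of 0.14 on the log2 scale. Hoxa3 in brachial KO replicate 3 was 18.3 TPM, against 5.91 to 10.4 TPM in the other 5 brachial libraries, and that library was also the shallowest (4.49 Gb).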

How the results depend on the processing

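Of 527 recomputed member values, 476 kept their direction and their side of the threshold, 15 lost the threshold, 3 gained it and 33 changed sign. The count of members differing between levels, 2 in the report, was 1 without the filter on low values, 0 with TPM as deposited, 1 in the 6 Het and 0 in the 6 KO libraries alone, and 1 to 3 when 1 library was left out. With TPM as deposited the median of all genes moved to -0.13 between levels and 0.16 between brachial genotypes. On that scale Hoxd3 was 0.37 (adjusted p = 0.057) and Hoxd1 0.58 (adjusted p = 0.0947), both above the median. The lumbar genotype count, 1 in the report (Hoxa3), was 0 with all 12 libraries in 1 fit, 0 by adjusted p, and 0 to 1 when 1 library was left out. Sign changes were of small values that passed no test. Between levels Hoxa3 was -0.081 with TPM as deposited, -0.025 with coverage, -0.036 in Het alone and -0.069 to 0.20 with 1 library left out, and Hoxb3 was 0.0035 with coverage, 0.012 with a sex term, 0.011 in KO alone and -0.036 to 0.021 with 1 library left out. With TPM as deposited Hoxb2 was 0.11 between brachial genotypes and Hoxd1 0.0027 between lumbar ones, and the difference of the genotype effects was -0.075 for Hoxa2 and -0.12 for Hoxb3 (-0.0037 with a sex term). With 1 library left out, brachial genotype values were -0.073 to 0.14 for Hoxa2, -0.23 to 0.12 for Hoxb2 and -0.0029 to 0.13 for Hoxb3. Lumbar ones were -0.26 to 0.18 for Hoxd1, -0.054 to 0.27 for Hoxa2 and -0.11 to 0.13 for Hoxd3. Differences of the effects were -0.10 to 0.22 for Hoxa2, -0.073 to 0.54 for Hoxa3 and -0.019 to 0.12 for Hoxb3. The cause of these shifts was not tested. The labels do not say whether same-numbered libraries share an embryo, and 3 of 6 brachial and lumbar pairs differ in sex. Their deviations from the group means correlated by -0.214 to 0.338, and in 10 of 24 comparisons a library correlated best with its own number. A replicate block left 2 members called between levels (Hoxd3 adjusted p = 0.00362), changed no other call, and gave 2327 in place of 3095 calls over all genes. Over all genes the level calls, 3095, were 488 in Het and 298 in KO alone. The brachial genotype calls, 517, were 341 with a pseudocount of 1, 797 without the filter, 1248 with TPM as deposited, 339 in protein-coding genes and 278 to 1382 with 1 library left out, and the lumbar ones, 295, were 181, 622, 273, 171 and 295 to 452. The study's count test was not run, since the tables hold no counts.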
